A study of Homo sapiens with 8 samples.

Results

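Eukaryotic initiation factor 3 (eIF3) is the largest of the factors that start translation. It binds the small ribosomal subunit, keeps it apart from the large subunit, and helps recruit the initiator tRNA and the mRNA. In mammals its centre is built from subunits that carry PCI domains (among them EIF3A, EIF3C, EIF3E and EIF3M) and MPN domains (EIF3F and EIF3H), the same 2 kinds of domain that make up the lid of the proteasome and the COP9 signalosome. EIF3B, EIF3D, EIF3G and EIF3I sit at the periphery, where EIF3B and EIF3I carry WD40 propellers, EIF3G binds RNA and EIF3D can bind the mRNA cap. METTL16 is an RNA methyltransferase, best known for its marks on the MAT2A transcript and on U6 snRNA, and in the cytosol it has been described as binding EIF3A and EIF3B.

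The 10 subunit genes EIF3A, EIF3B, EIF3C, EIF3D, EIF3E, EIF3F, EIF3G, EIF3H, EIF3I and EIF3M were taken by name from a table of 26830 genes, in which all 10 are present. The table holds 4 cultures of cells labelled HEK293T, an embryonic kidney line, all from 1 Cas9-carrying clone. The control culture received a lentiviral guide labelled as a negative control (sgNS, n = 1), and 3 cultures each received a different guide against METTL16 (sgMETTL16-1, sgMETTL16-2 and sgMETTL16-3, n = 3). All 4 cultures were kept in blasticidin (10 µg/ml) and puromycin (2 µg/ml) for 1 week or more and treated for 5 min with 100 µg/ml of cycloheximide to halt ribosomes on the mRNA. From each culture, input RNA and ribosome footprints (17 to 34 nt) were both sequenced. Values are TPM, a share of the library's transcripts corrected for length, so subunit RNAs can be compared with each other within an input library. How well that correction suits footprints was not tested. Differences between subunits in footprint TPM, or in its ratio to input TPM, carry that limit. Nothing states that the 3 guides were replicated beyond 1 culture each, so the p-values rest on the spread between guides and cultures together. In the input that spread was the one fitted for genes of a like level, not the gene's own. The lone sgNS culture is assumed to vary as the others do. Labels and markers differed: each of 16 markers of hepatocytes reached at least 10 TPM in the 4 inputs, while 9 of 14 HEK293 markers stayed under 1 TPM in every input. The summed hepatocyte markers ranged from 6871 to 11850 TPM in the inputs. Their part in the results was not tested.

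Read totals were not used here, so depth is unknown. Footprint libraries were sparse, with 20095 to 22468 genes listed at 0. METTL16 RNA was at 5.31 TPM in the sgNS input against 4.72, 5.25 and 4.16 TPM in the sgMETTL16-1, sgMETTL16-2 and sgMETTL16-3 inputs, and all 3 values were below sgNS. After scaling, all 3 were again below sgNS, as for 29.5% of genes tested. Its log2 difference was -0.63 (SE 0.35, limma adjusted p = 0.457), so the targeted gene did not pass the threshold in the input. Its footprints were at 19.76 TPM in sgNS and listed at 0 in the other 3 libraries (limma adjusted p = 0.0329). Of 608 genes called in the footprints 543 had that pattern of 0, and the call was lost when any 1 sgMETTL16 culture was left out (limma adjusted p from 0.0952 to 0.179). The protein-coding share of TPM also differed between libraries: 17.0% in the sgNS input against 23.5%, 24.7% and 18.8% in the sgMETTL16 inputs, and 25.4% in the sgNS footprints against 25.3%, 26.7% and 11.4%. Comparisons between libraries therefore used TPM divided by a median-ratio scaling factor, while comparisons between subunits used TPM as deposited.

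Several mRNAs of the translation machinery begin with a 5′ terminal oligopyrimidine tract, which ties their translation to growth signals, so the annotated starts of the subunits are shown here. RefSeq start windows (GRCh38.p14) were found for 6 of the 10 members and for EIF3J and EIF3K. The motif searched was a C at the annotated start followed by at least 4 letters that are C or T, on the strand of the gene. It is at 1429 of 35116 start windows of all genes (4.07%), at 42 of 75 windows of cytoplasmic ribosomal protein genes, and at 4 of the 8 windows of eIF3 subunits, namely those of EIF3D, EIF3F, EIF3K and EIF3M. The windows below hold 15 bases before the annotated start and 15 from it, and capitals mark the unbroken run of C and T that begins at the start.
EIF3D, chr22:36529152-36529181, minus strand: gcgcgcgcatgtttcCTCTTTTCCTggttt
EIF3F, chr11:7987322-7987351, plus strand: ttccgcttccgcctcCTTCTTTCTCgacaa
EIF3M, chr11:32583816-32583845, plus strand: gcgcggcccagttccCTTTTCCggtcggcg
EIF3K, chr19:38619173-38619202, plus strand: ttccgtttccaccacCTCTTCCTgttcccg
EIF3B, chr7:2354812-2354841, plus strand: ccccgtcgcacgcacatggctgggctgtag
EIF3I, chr1:32222392-32222421, plus strand: accttttccggtcttactcacgttgcggcc
EIF3B and EIF3I are shown for contrast, since the annotated starts in their windows are an A. For EIF3B that start, at 2354827, lies inside the gene, whose first base is at 2354086, so its outermost start was not read. The motif was read at 1 annotated start per window, and the starts used in these cells were not measured.

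The subunit RNAs differed widely in level in every input. EIF3G (chromosome 19, 10115014 to 10119899 in RefSeq's GRCh38.p14, the build of all places given here) had the highest mean input level of the 10, at 68.49 TPM in sgNS and 108.9, 117.0 and 101.9 TPM in the 3 sgMETTL16 cultures. EIF3B (chromosome 7, 2354086 to 2380745), the subunit that holds the peripheral module together, was at 58.24 TPM in sgNS against 90.84, 78.75 and 60.95 TPM. EIF3A (chromosome 10, 119033670 to 119080817), the large scaffold to which the other subunits attach, was at 10.66 TPM in sgNS against 19.58, 26.36 and 11.16 TPM. EIF3A RNA was thus below EIF3B RNA in all 4 inputs, while the assembled complex holds equal amounts of the proteins. The order by mean over the 4 inputs was EIF3G, EIF3B, EIF3F, EIF3I, EIF3H, EIF3D, EIF3E, EIF3A, EIF3M and EIF3C. EIF3G exceeded EIF3B, EIF3F exceeded EIF3I, EIF3I exceeded EIF3H, EIF3A exceeded EIF3M, and EIF3M exceeded EIF3C in 4 of 4 cultures. The neighbours EIF3H and EIF3D kept their order in 2 of 4 cultures and EIF3E and EIF3A in 1 of 4, so those levels did not differ beyond the spread between cultures.

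EIF3C, a PCI scaffold subunit on chromosome 16 (28688558 to 28735730), was the lowest of the 10 only as the table splits it. Its input was at 2.96, 7.38, 5.70 and 4.64 TPM in sgNS and sgMETTL16-1 to sgMETTL16-3, and its footprints were listed at 0 in all 4 libraries. The near-identical copy EIF3CL (chromosome 16, 28379581 to 28426418) was at 127.9, 255.1, 217.8 and 150.4 TPM in the inputs and at 110.9, 146.4, 277.6 and 82.94 TPM in the footprints. Reads shared by the 2 genes cannot be told apart by name, so neither value is certain by itself. Summed, they stood at 130.9, 262.5, 223.5 and 155.0 TPM in the inputs, which made EIF3C with EIF3CL the highest of the 13 eIF3 subunits in each of the 4 inputs.

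**Figure D1:**
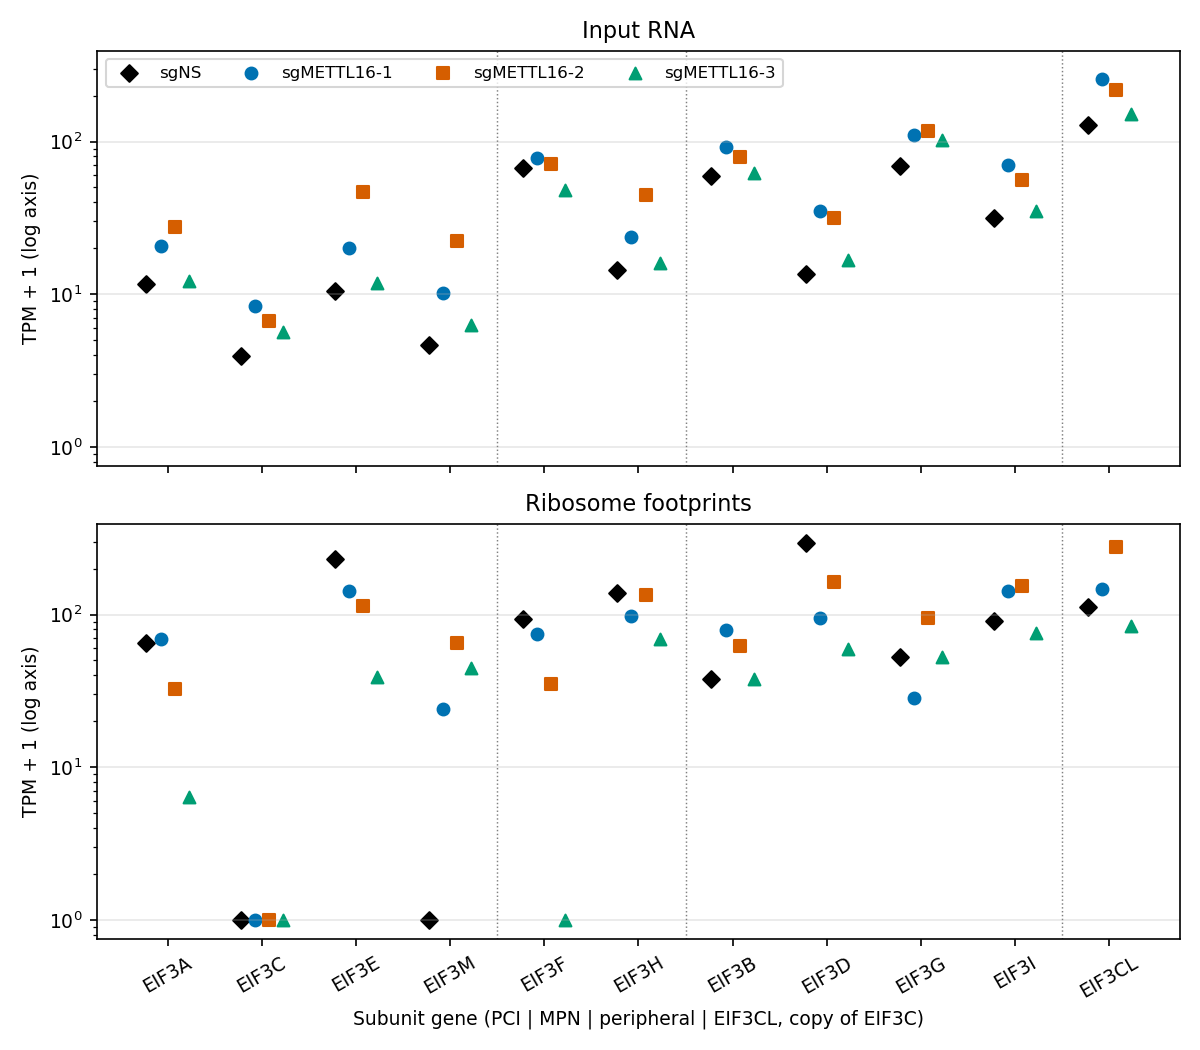
TPM + 1 on a log axis for the 10 subunit genes and EIF3CL, grouped by domain, in input RNA (top) and ribosome footprints (bottom), 1 point per culture; a value at 10 to the power 0 is a gene listed at 0. EIF3C is at 0 in all 4 footprint libraries while EIF3CL is at 82.94 to 277.6 TPM, and EIF3A lies below EIF3B in all 4 inputs.

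The comparison of sgMETTL16 with sgNS inputs asked whether the guides altered the RNA of the subunits. No subunit passed the test: 0 of 10 were called by limma over 10967 genes, where 387 genes (3.53%) were called, 2.26% higher and 1.27% lower, and 1 of 10 (EIF3M) had an unadjusted p under 0.05, as had 12.7% of all genes. In such bulk samples, fewer cells of a type and less RNA per cell cannot be told apart. Median log2 difference over the 10 was 0.24, against 0.01 for all genes tested, and 8 of 10 lay above 0, as did 5602 of 10967 genes. By culture, 7, 7 and 4 of the 10 were above 0 in sgMETTL16-1, sgMETTL16-2 and sgMETTL16-3. The share of all genes above 0 was 50.13%, 49.65% and 49.86%. In sgMETTL16-3 the median of the 10 was -0.02. EIF3A was at 0.18 (SE 0.36, limma adjusted p = 0.911) and EIF3B at -0.18 (SE 0.39, limma adjusted p = 0.915). After scaling, EIF3A was at 14.4 TPM in sgNS and 16.3, 20.6 and 13.2 TPM in the sgMETTL16 cultures, which enclose the control. EIF3B was at 78.8 TPM in sgNS and 75.4, 61.4 and 72.1 TPM, all 3 below the control, as for 29.5% of all genes tested. On TPM as deposited, with the median gene at 0.46, EIF3B turned to 0.38.

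Among the 10 members, EIF3E, EIF3M and EIF3H varied most between the 3 METTL16 guides. EIF3E (chromosome 8, 108201216 to 108248717), a PCI subunit also known as INT6, was at 9.42 TPM in sgNS and 19.04, 45.42 and 10.75 TPM in sgMETTL16-1, sgMETTL16-2 and sgMETTL16-3. EIF3M (chromosome 11, 32583831 to 32606264), a PCI subunit specific to the larger form of the complex, was at 3.65 TPM in sgNS and 9.11, 21.37 and 5.33 TPM. EIF3H (chromosome 8, 116642130 to 116766374), an MPN subunit, was at 13.40 TPM in sgNS and 22.61, 43.59 and 14.96 TPM. For all 3 genes sgMETTL16-2 was the highest input and sgNS the lowest on TPM as deposited, while after scaling sgMETTL16-3 was at or just below sgNS for EIF3E and EIF3H. After scaling, the range over the 3 sgMETTL16 cultures was 1.41 log2 units for EIF3E, 1.27 for EIF3M and 0.90 for EIF3H. Those ranges exceeded those of 99.3%, 98.9% and 93.0% of the genes tested, whose median range was 0.47. In the limma fit EIF3M was at 0.80 (SE 0.36, adjusted p = 0.270), EIF3E at 0.56 (SE 0.36, adjusted p = 0.561) and EIF3H at 0.30 (SE 0.37, adjusted p = 0.835).

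EIF3E and EIF3H lie on the same arm of chromosome 8, and the levels of other genes there were read after their values were seen. In sgMETTL16-2 the 294 tested protein-coding genes of chromosome 8 had a median log2 difference from sgNS of 0.23, against 0.00 for 9396 protein-coding genes. The 7 tested genes from EIF3E to EIF3H, these 2 included, were all above 0 in that culture, with a median of 0.65. Above 0 there were also 181 of the 294 genes of chromosome 8 and 4716 of the 9396 protein-coding genes. The other guides had like counts on chromosome 8, with 175 of the 294 above 0 in sgMETTL16-1 and 165 in sgMETTL16-3. Their chromosome 8 medians were 0.10 and 0.03, and 4760 and 4661 of the 9396 protein-coding genes lay above 0. In sgMETTL16-1 and sgMETTL16-3 the median of those 7 was 0.05 and -0.03, with 4 and 2 of the 7 above 0. Both of these medians are the value of EIF3H itself, so they are not separate from the genes that prompted the look. The part of this stretch in the EIF3E and EIF3H values was not tested, and EIF3M, with a like pattern, is on chromosome 11.

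The other members varied less between guides. EIF3F (chromosome 11, 7987337 to 8001852), an MPN subunit, was at 65.63 TPM in sgNS and 76.57, 69.78 and 46.96 TPM in the sgMETTL16 inputs. Scaled, it was at 88.8 TPM in sgNS and 63.5, 54.4 and 55.5 TPM, so all 3 cultures lay below the control, as for 29.5% of genes tested. Its log2 difference of -0.61 (SE 0.39, limma adjusted p = 0.547) did not pass, and its range over the guides, 0.22, was wider than that of 11.4% of genes. EIF3B had a range of 0.29, EIF3C of 0.39, EIF3G of 0.41, EIF3I of 0.50, EIF3D of 0.59 and EIF3A of 0.60. The EIF3A range was wider than that of 71.9% of genes. EIF3D (chromosome 22, 36510855 to 36529166), the cap-binding subunit, was at 12.57 TPM in sgNS and 34.24, 30.43 and 15.73 TPM. It was above the control in all 3 cultures also after scaling, as were 30.7% of genes tested (log2 difference 0.43, SE 0.37, limma adjusted p = 0.713). EIF3I (chromosome 1, 32222407 to 32236170), at 30.71 TPM in sgNS and 68.90, 55.38 and 33.89 TPM, had a log2 difference of 0.15 (SE 0.38, limma adjusted p = 0.929). EIF3G was at 0.11 (SE 0.39, limma adjusted p = 0.960), and -0.03 without sgMETTL16-3.

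Outside the 10 members, EIF3K, a PCI subunit, was at 53.53 TPM in sgNS and 63.53, 55.82 and 40.98 TPM in the sgMETTL16 inputs, and -0.58 in the limma fit (SE 0.38, adjusted p = 0.571). EIF3L, its partner in the complex, was at -0.34 and EIF3J, a loosely bound subunit, at 0.08 (limma adjusted p = 0.801 and 0.965). The range of EIF3L over the guides, 1.02, was wider than that of 96.3% of genes. Of the start windows shown above, those with the pyrimidine run belonged to genes on both sides: EIF3F and EIF3K below sgNS in all 3 scaled inputs, EIF3D and EIF3M above it in all 3. Of all genes tested, 29.5% lay below sgNS in all 3 and 30.7% above it.

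**Figure D2:**
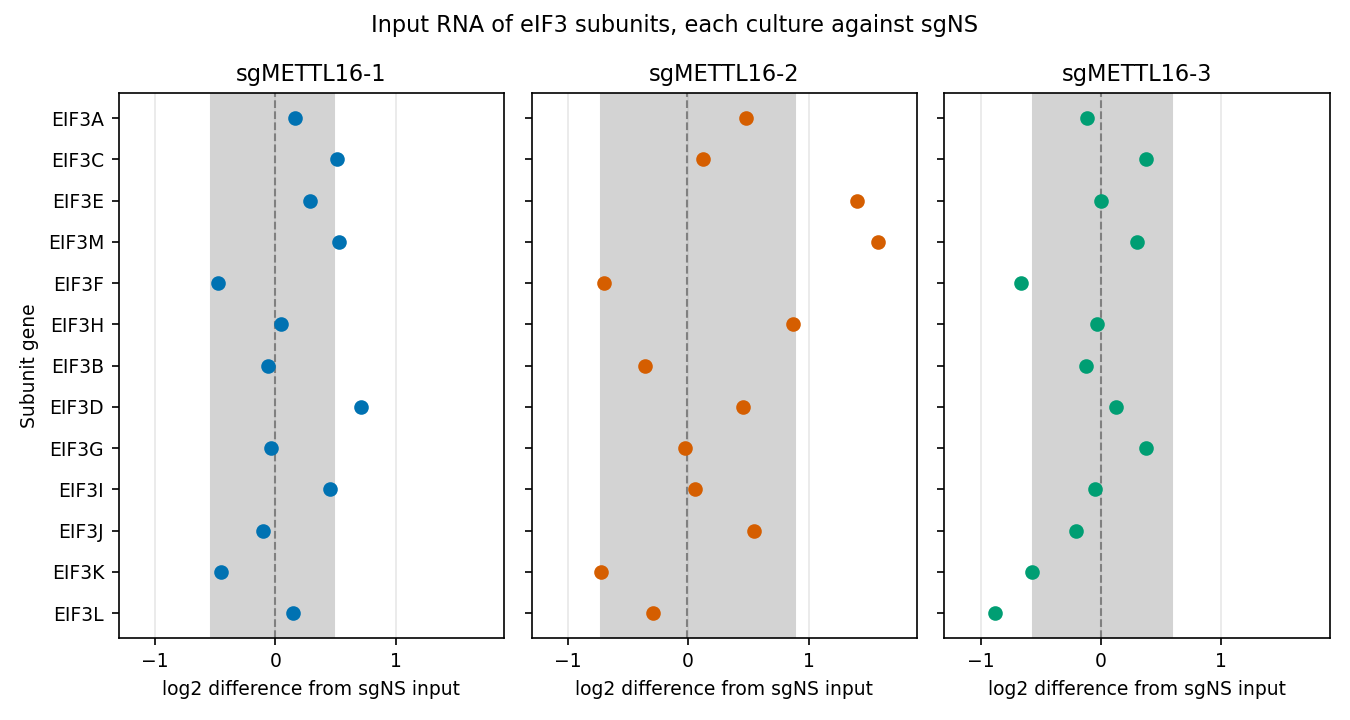
Scaled log2 difference of each sgMETTL16 input from the sgNS input for 13 eIF3 subunit genes, 1 panel per culture; the grey band leaves out the extremes on either side of 10967 genes tested (from -0.53 to 0.49 in sgMETTL16-1, -0.73 to 0.88 in sgMETTL16-2 and -0.56 to 0.59 in sgMETTL16-3) and the dashed line is their median. EIF3E lies to the right of the band in sgMETTL16-2 alone, EIF3M in sgMETTL16-1 and sgMETTL16-2, and EIF3F lies left of the median in all 3 cultures.

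Footprints of the subunits were compared next, to see which had more or fewer ribosome-protected fragments. Of the 10 members 9 entered the fit (EIF3C, at 0, did not), and 0 of 9 passed limma's test, against 608 of 9297 genes (6.54%), 0.699% higher and 5.84% lower. Of those 608 calls, 607 were genes listed at 0 in sgNS or in all 3 sgMETTL16 libraries, so a gene seen on both sides was almost never called. EIF3B and EIF3M had an unadjusted p under 0.05, as had 12.4% of genes. Median log2 difference over the 9 was 0.04, against 0.89 for all genes tested, and 5 of 9 lay above 0, as did 5600 of 9297 genes. The sgNS footprint library listed 22244 genes at 0, so many of the genes behind that 0.89 had no sgNS value. Over the alternatives run, the members above the median gene varied from 1 of 9 to 5 of 9. The 5 of 9 were found at a mean TPM of 10 or more. By mean footprint TPM over the 4 cultures the order was EIF3D, EIF3E, EIF3I, EIF3H, EIF3G, EIF3B, EIF3F, EIF3A, EIF3M and EIF3C. EIF3H exceeded EIF3G in 4 of 4 cultures, and each of the other neighbours kept this order in 1 to 3 of 4.

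EIF3A footprints were at 64.31 TPM in sgNS and 67.95, 31.42 and 5.34 TPM in sgMETTL16-1, sgMETTL16-2 and sgMETTL16-3. The control lay inside the range of the guides, and the log2 difference of -0.91 had an SE of 1.38 (limma adjusted p = 0.695). EIF3B footprints were at 37.08 TPM in sgNS and 78.35, 61.12 and 36.99 TPM, 2 above the control and 1 just below it. Scaling placed all 3 above it, as for 11.5% of genes tested (log2 difference 1.12, SE 0.34, limma adjusted p = 0.402). The median gene tested was at 0.89 on this scale. With libraries centred on the median gene, which is at 0 in some libraries, the EIF3B value was -1.54.

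EIF3D and EIF3E footprints were highest in the control. EIF3D was at 295.0 TPM in sgNS and 93.47, 162.0 and 58.87 TPM in the sgMETTL16 cultures, and EIF3E at 230.0 TPM in sgNS and 141.7, 112.2 and 38.25 TPM. Both were below sgNS in all 3 cultures, without overlap, also after scaling, as were 22.4% of all genes tested. Their log2 differences were -1.06 (SE 0.49, limma adjusted p = 0.695) and -0.88 (SE 0.60, limma adjusted p = 0.695). EIF3F was at 92.47 TPM in sgNS, at 73.21 and 33.83 TPM in sgMETTL16-1 and sgMETTL16-2, and listed at 0 in sgMETTL16-3. EIF3M was listed at 0 in sgNS and at 23.12, 64.10 and 43.72 TPM in the sgMETTL16 cultures, and no fold is given against a value of 0 (limma adjusted p = 0.148). EIF3J had the same pattern, at 0 in sgNS and at 25.26, 26.28 and 11.93 TPM (limma adjusted p = 0.0536).

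EIF3H, EIF3I and EIF3G footprints showed no shift past the test. EIF3H was at 136.6 TPM in sgNS and 96.12, 133.3 and 68.17 TPM, with a log2 difference of 0.04 (SE 0.35, limma adjusted p = 0.942) that was -0.51 on TPM as deposited. EIF3I was at 89.91 TPM in sgNS and 142.4, 153.6 and 74.76 TPM (log2 difference 0.93, SE 0.29, limma adjusted p = 0.412). EIF3G was at 51.69 TPM in sgNS and 27.28, 94.54 and 51.61 TPM (log2 difference 0.53, SE 1.01, limma adjusted p = 0.726).

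Translation efficiency, the footprint to input ratio, is the question named in the title of the series. It was tested over all 8 libraries, as the difference in footprints less the difference in input (an interaction term). None of the 9 tested subunits passed limma's test (0 of 9, 1 with an unadjusted p under 0.05, as had 11.7% of genes), against 65 of 8002 genes (0.812%), each of which was listed at 0 in sgNS or in all 3 sgMETTL16 footprint libraries. EIF3A was at -1.09 (SE 1.49, limma adjusted p = 0.826) and EIF3B at 1.30 (SE 0.58, limma adjusted p = 0.540). EIF3D was at -1.49 (SE 0.74, limma adjusted p = 0.679) and EIF3E at -1.45 (SE 1.05, limma adjusted p = 0.826). The interval of each is wide: with an SE of 0.58 to 1.49, a moderate shift in any of the 4 could not be told from none. With each culture as a replicate block, 0 genes and 0 members were called.

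Taken over the 4 cultures, the subunits differed in their footprint TPM relative to their input TPM. Of the 9 tested, 3 were above and 2 below the scaled input in limma's test, where 3.21% of 8002 genes were called higher and 27.6% lower (30.8% in all). An unadjusted p under 0.05 was found for 6 of 9, as for 44.9% of genes. That fit leaves out the pairing of libraries by culture, and with the culture as a replicate block 1 of 9 members was called. EIF3E, EIF3D and EIF3H were the 3 higher in the unpaired fit. EIF3E had a footprint to input TPM ratio of 24.4 in sgNS and 7.44, 2.47 and 3.56 in the sgMETTL16 cultures (log2 difference 1.66, SE 0.49, limma adjusted p = 0.0302). EIF3D had ratios of 23.5, 2.73, 5.32 and 3.74 (log2 difference 1.59, SE 0.45, limma adjusted p = 0.0253), and EIF3H of 10.2, 4.25, 3.06 and 4.56 (log2 difference 1.32, SE 0.40, limma adjusted p = 0.0319). EIF3I was also above 1 in all 4 cultures, from 2.07 to 2.93, and did not pass (limma adjusted p = 0.538). All 4 of these genes had more footprint than input TPM in every culture, as had 10.6% of all genes. After scaling, EIF3D, EIF3E and EIF3H remained above in all 4, as did 6.85% of genes. In each of the 3 called genes the sgNS ratio was the highest, and scaling kept that order but made the gap smaller. Scaled log2 ratios in sgNS and sgMETTL16-1 to sgMETTL16-3 were 2.70, 2.11, 0.80 and 1.05 for EIF3E. For EIF3D they were 2.66, 0.70, 1.88 and 1.13, and for EIF3H 1.47, 1.32, 1.10 and 1.41. How many other genes had their highest ratio in sgNS was not counted.

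Those 3 calls rest on having all 4 cultures. On TPM as deposited EIF3E did not pass (limma adjusted p = 0.0511). With the culture as a replicate block the limma adjusted p was 0.0632 for EIF3E, 0.0652 for EIF3D and 0.0924 for EIF3H, and none of the 3 passed when any 1 culture, control or sgMETTL16, was left out (adjusted p from 0.0540 to 0.142). Their direction and their distance above the median gene remained under each of the 13 alternatives run, from 1.82 to 4.42 log2 units above it.

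EIF3B and EIF3G were the 2 members called lower. EIF3F had a lower value than either (log2 difference -2.53, SE 1.11) and did not pass (limma adjusted p = 0.104), and EIF3CL, which holds nearly all of the TPM of the EIF3C pair, was called lower too (-1.32, SE 0.42, limma adjusted p = 0.0373). EIF3B had ratios of 0.637 in sgNS and 0.863, 0.776 and 0.607 in the sgMETTL16 cultures, under 1 in all 4, as had 20.2% of all genes. EIF3G had ratios of 0.755, 0.251, 0.808 and 0.507, also under 1 in all 4. Both passed limma's test (log2 difference -1.42, SE 0.43, adjusted p = 0.0343, and -1.84, SE 0.50, adjusted p = 0.0222). The median gene tested was at -1.34 on this scale, so EIF3B was 0.07 and EIF3G 0.50 log2 units below it, and neither passed on TPM as deposited (limma adjusted p = 0.607 and 0.306). With libraries centred on the median gene EIF3B turned to 0.26 and EIF3CL to 0.36. With the culture as a replicate block EIF3G passed (limma adjusted p = 0.0364) and EIF3B and EIF3CL did not (limma adjusted p = 0.0823 and 0.0756). EIF3B did not pass without any 1 culture (limma adjusted p from 0.0735 to 0.126), and EIF3G passed only when sgMETTL16-2 was the one left out (0.0480). EIF3CL did not pass without sgNS, sgMETTL16-1 or sgMETTL16-3 (limma adjusted p from 0.138 to 0.159). As deposited, the EIF3A ratio ranged from 0.479 in sgMETTL16-3 to 6.03 in sgNS, and that of EIF3F from 0 in sgMETTL16-3 to 1.41 in sgNS. The EIF3M ratio, at 0 in sgNS, was at 2.54, 3.00 and 8.20 in the others. Scaling made sgMETTL16-1 the highest culture for EIF3A, with a log2 ratio of 1.03 against 0.72 in sgNS. The same held for EIF3F, at -0.79 against -1.33. On TPM as deposited EIF3A was above 1 in 3 of 4 cultures and EIF3B in none, a pair that was not tested against each other.

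**Figure D3:**
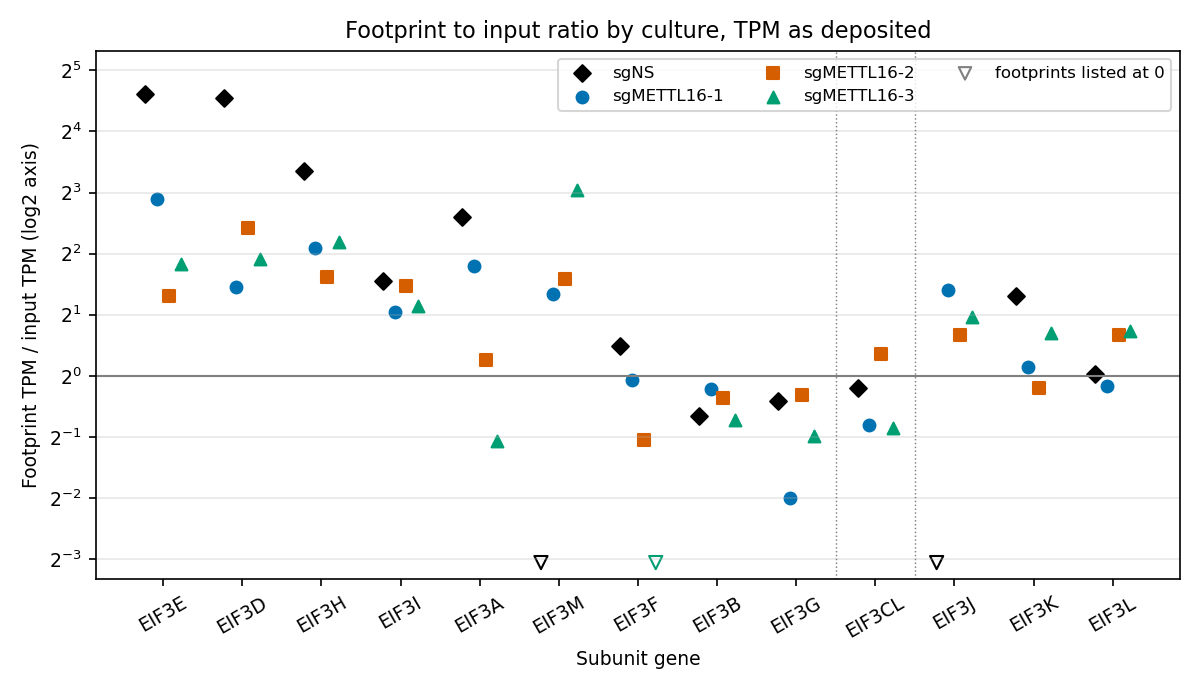
Footprint TPM divided by input TPM as deposited, on a log2 axis, for 13 eIF3 subunit genes (EIF3CL standing for EIF3C), 1 point per culture; open triangles at the bottom are genes whose footprints were listed at 0. EIF3E, EIF3D, EIF3H and EIF3I are above 1 in all 4 cultures, and EIF3B and EIF3G are below 1 in all 4.

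As shares of the summed TPM of 13 eIF3 subunits, with EIF3C and EIF3CL joined, the make-up of RNA and of footprints can be set side by side with no scaling between libraries. EIF3D made up 2.55% to 4.09% of eIF3 RNA and 9.06% to 23.2% of eIF3 footprints, and EIF3H 2.70% to 5.28% and 9.31% to 11.99%. EIF3E made up 1.91% to 5.51% and 6.73% to 18.1%. For these 3 the lowest footprint share exceeded the highest input share. EIF3G went the other way, with 13.0% to 19.5% of the RNA and 2.64% to 9.08% of the footprints, as did EIF3B, with 9.55% to 11.8% and 2.92% to 7.59%. EIF3C with EIF3CL, at 26.6% to 31.3% of the RNA, made up 8.73% to 22.0% of the footprints, and EIF3F, at 8.46% to 13.3% of the RNA, 0% to 7.28% of the footprints. For these 4 the highest footprint share was below the lowest input share. EIF3I had a larger share of footprints than of RNA within each culture, with ranges that overlapped (6.24% to 8.22% and 7.08% to 13.8%). The 13 subunits together held 0.289%, 0.357%, 0.334% and 0.277% of protein-coding input TPM in sgNS, sgMETTL16-1, sgMETTL16-2 and sgMETTL16-3, and 0.501%, 0.408%, 0.474% and 0.499% of protein-coding footprint TPM. The control was inside the range of the guides in the input and the highest of the 4 in the footprints, next to sgMETTL16-3.

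**Figure D4:**
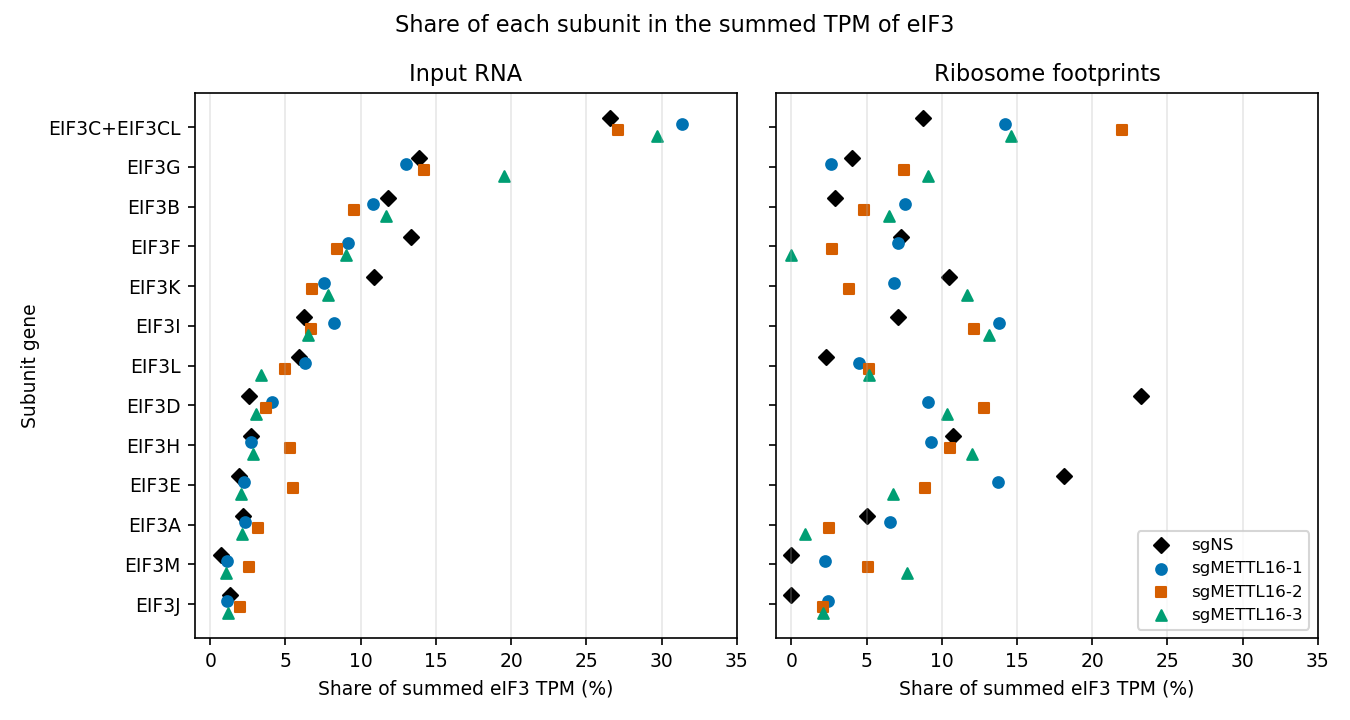
Share of each subunit gene in the summed TPM of the 13 eIF3 subunits, in percent, for input RNA (left) and ribosome footprints (right), 1 point per culture. EIF3D, EIF3E, EIF3H and EIF3I have a larger share of footprints than of RNA in all 4 cultures, and EIF3B, EIF3F, EIF3G and EIF3C with EIF3CL a smaller one.

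Across the 10 subunits above 0 in all 8 libraries, the SD of log2 TPM between subunits was 1.31, 1.22, 0.93 and 1.36 in the inputs of sgNS, sgMETTL16-1, sgMETTL16-2 and sgMETTL16-3. In the footprints it was 1.09, 0.77, 0.94 and 1.16. By SD the footprint levels were therefore closer to each other than the RNA levels in 3 of 4 cultures, the exception being sgMETTL16-2, where they were alike. The highest subunit over the lowest was 13.9, 13.8, 8.48 and 14.4 in the inputs and 9.99, 5.37, 8.83 and 15.5 in the footprints. By that measure footprints were closer in sgNS and sgMETTL16-1 only. Both measures leave out EIF3F, EIF3J and EIF3M, each listed at 0 in 1 footprint library.

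Other initiation factors give the setting of these values. Of 31 tested initiation factors outside eIF3, 0 passed in the input (median log2 difference 0.04). In the footprints 1 was higher and 2 lower (median -0.49), beside 6.54% of all genes called, and all 3 were subunits of eIF2B, the exchange factor that recharges eIF2. In translation efficiency 1 of 31 passed, EIF2B4 (limma adjusted p = 0.0450), beside 0.812% of all genes. These footprint and efficiency calls were lost when any 1 sgMETTL16 culture was left out, since 0 genes were then called. In the footprint to input ratio 4 were higher and 9 lower (median -0.35), beside 3.21% and 27.6% of all genes, with ABCE1, which recycles ribosomes, at 2.77 and EIF4G1, the scaffold of the cap complex, at -2.12 (limma adjusted p = 0.00514 and 0.00727).

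By level in all 8 libraries, the protein-coding genes closest to EIF3A were RBM39, SAR1A and HP1BP3, with a root mean square difference of log2(TPM + 1) of 0.48, 0.53 and 0.53. Closest to EIF3B were WBP2, SHMT2 and PSMB6, at 0.29, 0.37 and 0.37. EIF3A had no neighbour as near as the first of EIF3B.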

How the data were processed

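Input RNA and ribosome footprints were sequenced as 51-base single-end reads after ribosomal RNA removal, per the labels' protocols. The submitters' processing notes name STAR, RSEM 1.2.31 and the build GRCh38. The authors deposited TPM, which sums to 1000000 in every library. Without read totals, no counting interval was computed.

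TPM was divided by each library's median ratio to the geometric mean over genes above 0 in every library of a fit (within each kind for translation efficiency), and log2(TPM + 1) was fitted with limma 3.58.1 in R 4.3.3, with an intensity trend and Benjamini-Hochberg adjustment over all genes tested (threshold 0.05). A gene entered if its mean was at least 1 TPM in each kind of library. The added 1 TPM shrinks differences of low genes. In the input the prior degrees of freedom were infinite, so each gene took the fitted spread for its level, whatever its own. The ratio was scaled over 1674 genes above 0 in all 8 libraries, and its median tested gene lay at -1.34. Scripts were tested on simulated data.

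Input and footprint libraries of a name come from 1 culture, per the series' design text, which pairs them, so the replicate block applies. Their deviations over 8002 genes correlated at 0.05, -0.00 and 0.03, against -0.06 to 0.04 between libraries of different cultures. The main fits of translation efficiency and of the ratio leave the block out. All 10 members, the other subunits, METTL16, JUN, BTG1, list members past the threshold or with the 2 smallest p, and the 3 genes nearest EIF3A and EIF3B were named. Members and lists were chosen with earlier results of these data known. Gene places and start windows are from RefSeq (GRCh38.p14). Of 26830 symbols 23987 matched.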

Additional observations from a re-analysis of the deposited data

How the results depend on the processing

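No eIF3 member passed limma's threshold in the input or footprints under any alternative run, and in translation efficiency EIF3M alone passed, with a pseudocount of 0.1 (adjusted p = 0.0320). The counts over all genes moved more. Input calls (387) were 73 with no filter, 249 at a mean TPM of 10 or more, 23 on TPM as deposited and 157 to 378 leaving out 1 sgMETTL16 culture. Footprint calls (608) were 146 at 10 or more. They were 0 with median centring (1189 at an unadjusted p under 0.05) and 0 leaving out any 1 sgMETTL16 culture (1420 to 1942). Translation efficiency calls (65) were 724 and 23 with pseudocounts of 0.1 and 5, 1256 with no filter, 105 at 10 or more, 14 as deposited and 412 over protein-coding genes. They were 0 with median centring (731 unadjusted), 0 leaving out any 1 sgMETTL16 culture (1136 to 1886) and 0 with the culture as a replicate block (604). Ratio calls (2468) were 1324 with a pseudocount of 0.1, 10768 with no filter, 728 at 10 or more, 565 as deposited, 290 centred, 599 over protein-coding genes, 292 to 657 leaving out 1 culture and 1938 with the replicate block. Of the 2468 calls 2211 were lower, of the 290 centred calls 49, and of the 599 coding calls 305.

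Some values changed sign, among them the called ratios of EIF3B and EIF3CL, which lost their calls, and otherwise values that were not called. As deposited, input values became 0.38 for EIF3B and 0.21 for EIF3L. Footprint values became -0.014 for EIF3G and -0.51 for EIF3H. Translation efficiency became -0.68 for EIF3G, -0.32 for EIF3I, -1.09 for EIF3K and -0.23 for EIF3CL, and the ratio 0.88 for EIF3A, 0.48 for EIF3K and 0.30 for EIF3L. With median centring, footprints became -1.54 for EIF3B, -2.14 for EIF3G, -2.64 for EIF3H, -1.74 for EIF3I, -1.54 for EIF3L, -1.695 for EIF3CL, -0.086 for JUN and -1.31 for BTG1. The centred ratio became 1.62 for EIF3A, 0.26 for EIF3B, 0.73 for EIF3J, 1.22 for EIF3K, 1.04 for EIF3L and 0.36 for EIF3CL. Over protein-coding genes, EIF3H footprints became -0.15, EIF3K translation efficiency -0.35, and the ratio 0.87 for EIF3A, 0.47 for EIF3K and 0.29 for EIF3L. Pseudocounts of 5 and 0.1 gave ratios of 0.024 for EIF3A and -0.54 for EIF3M. Leaving out 1 culture at a time, input values ran from -0.034 to 0.178 for EIF3G and -0.158 to 0.218 for EIF3J. Translation efficiency ran from -2.845 to 0.13 for EIF3F, -0.304 to 0.014 for EIF3H and -0.163 to 0.325 for EIF3K. The ratio ran from -0.39 to 0.52 for EIF3A, -0.47 to 1.31 for EIF3M and -1.08 to 0.376 for EIF3J. The cause was not tested.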

Other observations

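JUN and BTG1 mRNAs have been described as bound by eIF3, which raises translation of the first and lowers that of the second. JUN RNA was at 8.83 TPM in the sgNS input against 20.34, 32.63 and 27.57 TPM in the sgMETTL16 inputs. It was above the control in all 3 cultures also after scaling, as were 30.7% of genes tested (log2 difference 0.96, SE 0.37, limma adjusted p = 0.148). JUN footprints were listed at 0 in sgNS and sgMETTL16-1 and at 6.29 and 8.57 TPM in sgMETTL16-2 and sgMETTL16-3. BTG1 RNA was at 2.57 TPM in sgNS against 5.27, 6.36 and 3.84 TPM (log2 difference 0.33, SE 0.35, limma adjusted p = 0.789), with footprints in sgMETTL16-2 alone, at 4.46 TPM. Over the 4 cultures both had fewer footprints than RNA (limma adjusted p = 0.0189 and 0.0236), where 27.6% of genes were called lower.

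The 2 other complexes built from PCI and MPN subunits were read in the same fits. Of 9 COP9 signalosome genes 0 passed in the input (median log2 difference 0.08), and of 9 proteasome lid genes 0 passed (median -0.02), against 0 of 10 eIF3 members (median 0.24). COPS2, at 0.76, and SHFM1, at -0.97, had the smallest p of their lists (limma adjusted p = 0.268 and 0.152). In the footprint to input ratio 1 of 9 COP9 genes was higher (COPS3, at 2.06, limma adjusted p = 0.0320) and 1 of 9 lid genes lower (PSMD3, at -3.10, limma adjusted p = 0.0482), where 3.21% of all genes were called higher and 27.6% lower. The medians were -0.40 and -0.94 beside 0.20 for the 9 tested eIF3 members. Whether the complexes differ was not tested.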
